A study of Mus musculus with 8 samples.

Results

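The forkhead box O (FoxO) transcription factors and a set of their target genes were described in 8 mouse RNA-seq libraries, 4 from a control group and 4 from a group given tranilast. Tranilast is an anti-allergic drug. The 10 genes were taken by symbol from a table of 22063 genes: 3 factors (Foxo1, Foxo3 and Foxo4) and 7 targets (Sesn3, Il7r, Ccng2, Pik3ip1, Irs2, Klf2 and Bcl6). They were chosen with their tranilast and control counts in these same libraries known. The difference between the groups is therefore given for them as a description, and the calls counted below are not read as a test of it. Every library was labelled as wild type and as liver. The high-fat, high-cholesterol (HFHC) diet of both groups comes from the series design and not from the sample labels. By the study's methods, the animals were male C57BL/6J mice, 6 to 8 weeks old on arrival, that ate the diet for 16 weeks and received tranilast at 25 or 50 mg/kg, or the sodium carboxymethylcellulose vehicle, for 8 weeks. Which dose the sequenced mice received is not stated in the sources used here. The labels number the libraries from 1 to 4 in each group without tying each to its own animal, so the p-values below measure the spread between these libraries, which may be technical.

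The libraries held between 12053036 and 15618787 estimated counts. The defining markers of hepatocytes were near absent: Serpina1a, Fabp1 and Cps1 had no count in any library, Alb had at most 2 counts, and the 9 markers together took between 0.000199% and 0.000446% of the control counts and between 0.000478% and 0.000717% of the tranilast counts, mostly from Trf. The part of this higher sum in the members' values was not tested. The 14 macrophage markers took between 1.07% and 1.13% in the control group and between 1.10% and 1.16% in the tranilast group, and 12 of them passed 3 counts in a library. Csf1r, the receptor that macrophages need to survive, had between 29718 and 38395 counts. In contrast, Mertk and Mrc1 had at most 3 counts and C1qa, C1qb and C1qc at most 11, and Fcgr1 had 1104 to 1731 counts in the control and 462 to 615 in the tranilast libraries. Of the 7 Kupffer cell markers Clec4f, Vsig4 and Timd4 were at 0, and the list took 0.00334% to 0.00403% of the control and 0.00294% to 0.00388% of the tranilast counts, mostly from Id3. These contents go against the tissue label, and the values below are therefore called by their libraries and not by a liver cell type. In bulk RNA, fewer cells of a type and less RNA per cell cannot be told apart.

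FoxO proteins bind DNA through a forkhead domain. When insulin or a growth factor activates PI3K, the kinase AKT phosphorylates them, adaptor proteins bind them, and the export receptor carries them out of the nucleus; when the signal falls they return and switch on genes of cell cycle arrest, stress defence, autophagy, apoptosis and gluconeogenesis. Some targets act back on the same pathway, as Irs2 and Pik3ip1 do, and others serve lymphocytes, as Il7r and Klf2 do. Their activity is set mainly by phosphorylation, acetylation and location in the cell, which RNA-seq does not measure.

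The promoter sequences of 9 of the 10 genes were read from RefSeq windows of 300 bases (250 before to 50 after the start) on GRCm38.p6, and both strands were searched for 2 motifs. The FoxO core TGTTTAC, or its reverse complement GTAAACA, occurred in the windows of 4.05% of 27025 mouse genes and in 0 of the 9. The core of the insulin response element, CAAAACA, or its reverse complement TGTTTTG, occurred in 7.20% of all genes and in 2 of the 9, Ccng2 and Irs2. The motifs differ in their letters, so that the same bases cannot hold both. A match is a description and not a site of binding, and the absence of one says only that these letters were not in this window. The sequences below run 5′ to 3′ on the strand of the gene and end at the base before its RefSeq start. The stretches of Ccng2, Sesn3 and Il7r lie inside the gene as GENCODE bounds it, which starts further upstream, and that of Ccng2 overlaps an annotated UTR. That of Irs2 lies wholly upstream of the GENCODE start at 11008458 and does not reach it. Of the 10 windows of the 9 genes, 7 had their start in a GENCODE transcript of the gene. Ccng2 and Irs2 are shown because they hold the match, which is in capitals, and Sesn3 and Il7r because they had the largest fold differences of the members, as given below. Ccng2 is shown as its last 30 bases and the others as 100 bases.
Ccng2 (chromosome 5, + strand, 16 bases from the first base of the match to the start): gggcgtcgcagactCAAAACAaaaacaagg
Irs2 (chr8:11008930-11009029, − strand, 37 bases from the first base of the match to the start): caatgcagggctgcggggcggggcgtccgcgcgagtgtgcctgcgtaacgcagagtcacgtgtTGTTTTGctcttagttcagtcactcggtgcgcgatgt
Sesn3 (chr9:14276201-14276300, + strand, no match): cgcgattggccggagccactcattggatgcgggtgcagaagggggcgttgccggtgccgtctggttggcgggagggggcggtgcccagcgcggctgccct
Il7r (chr15:9529877-9529976, − strand, no match): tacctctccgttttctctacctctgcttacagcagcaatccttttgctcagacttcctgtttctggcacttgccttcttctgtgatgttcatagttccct
The stretch of Sesn3 was 73.0% G or C and that of Irs2 62.0%, against 46.0% for Il7r.

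Irs2 was removed by the filter on low counts, which left 10770 genes, 9 of them members. At an adjusted p-value under 0.05 (edgeR quasi-likelihood test, Benjamini-Hochberg adjustment over the 10770 genes), 57.0% of all tested genes were called, 28.2% as higher and 28.8% as lower with tranilast. All 9 tested members were among the called genes, 6 of them higher and 3 lower. The libraries of the groups did not overlap for any of the 9, against 49.8% of all tested genes. Since the members were chosen on this contrast, nothing is read from these counts. Sesn3, Il7r and Pik3ip1 passed the filter through the tranilast libraries alone and so had to differ. The median log2 fold change of the tested genes was 0.01 and the median of its absolute values 0.21. When libraries were scaled by their size alone in place of TMM, the median moved by 0.12 to 0.12, and the changes below are relative to the TMM scale. Of the called genes 49.5% were higher on that scale, 49.0% with RLE factors, 62.6% with upper-quartile factors, 70.9% with library size alone, and 70.5% and 70.4% on log2 FPKM with 1 or 0.1 added. The direction of every tested member was the same on all of these scales.

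**Figure D1:**
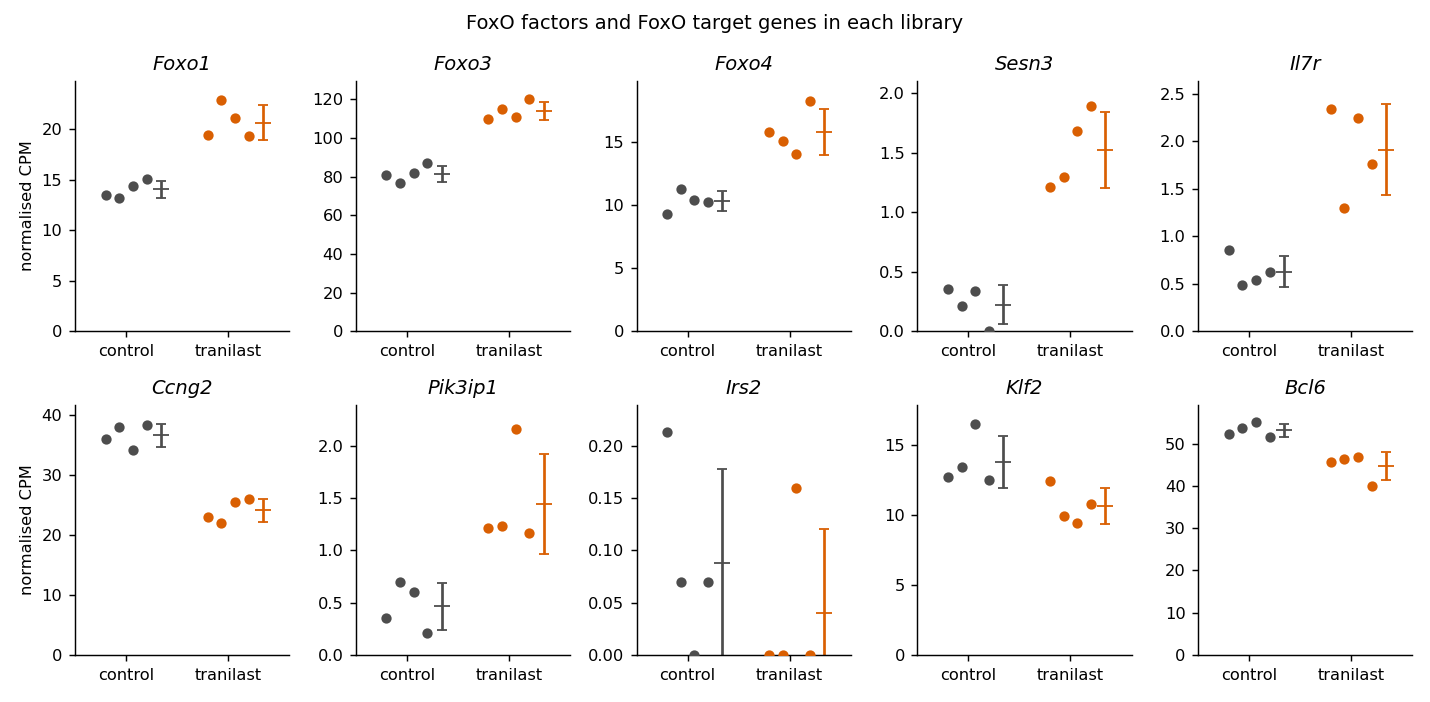
Normalised CPM (counts scaled to the TMM-normalised library size) of the 10 genes in each library, 1 panel a gene on its own axis from 0, with 4 control (grey) and 4 tranilast (orange) points and, beside them, the mean and SD (bars end at 0 for Irs2). The tranilast points lie above all control points for Foxo1, Foxo3, Foxo4, Sesn3, Il7r and Pik3ip1, below them for Ccng2, Klf2 and Bcl6, and among them for Irs2.

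The 3 factors were all higher in the tranilast libraries, by 1.40 to 1.54 times. Foxo3 (ENSMUSG00000048756, chromosome 10, 42181841 to 42276755, − strand, GRCm38) is the factor best known for stress resistance and apoptosis. It had 80.7, 76.8, 82.0 and 86.9 normalised CPM in the control libraries and 110, 115, 111 and 120 in the tranilast libraries. The lowest tranilast library was above the highest control library. The means were 81.6 ± 4.15 and 114 ± 4.67 normalised CPM (SD, n = 4 each), a log2 fold change of 0.48 (SE 0.0448), at percentile 89.2 of all tested genes.

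Foxo1 (ENSMUSG00000044167, chromosome 3, 52268336 to 52353221, + strand) is the factor that drives gluconeogenesis in the liver and also acts in lymphocytes. It had 13.5, 13.2, 14.4 and 15.1 normalised CPM in the control libraries and 19.4, 22.9, 21.1 and 19.3 in the tranilast libraries, with a clear gap between the groups. The means were 14.1 ± 0.859 and 20.7 ± 1.68 normalised CPM (SD, n = 4 each), a log2 fold change of 0.55 (SE 0.0873). Its exons overlap those of the antisense gene Gm20402, and whether counting used strand is not stated, so reads of the pair cannot be told apart.

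Foxo4 (ENSMUSG00000042903, X chromosome, 101254528 to 101260873, + strand) had 9.32, 11.3, 10.4 and 10.3 normalised CPM in the control libraries and 15.8, 15.1, 14.1 and 18.3 in the tranilast libraries. Its groups did not overlap either. The means were 10.3 ± 0.794 and 15.9 ± 1.79 normalised CPM (SD, n = 4 each), a log2 fold change of 0.62 (SE 0.104). The fourth mouse factor, Foxo6, best known from the brain, had 0 counts in every control library and 1, 0, 1 and 0 in the tranilast libraries. These are at or under the floor of 3 counts per library that a count of 0 allows, and no fold is given.

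Among the targets that act back on PI3K and nutrient signalling, Pik3ip1 and Sesn3 were higher and Irs2 was barely detected. Pik3ip1 (ENSMUSG00000034614, chromosome 11, 3330401 to 3342971, + strand) encodes a membrane protein that inhibits PI3K. It had 5, 10, 9 and 3 counts in the control libraries and 17, 17, 27 and 18 in the tranilast libraries. Every tranilast library was above every control library, although all counts were low. The means were 0.465 ± 0.223 and 1.44 ± 0.477 normalised CPM (SD, n = 4 each), a log2 fold change of 1.59 (SE 0.402). Tranilast replicate 3, at 2.16, stood apart from the others at 1.17 to 1.23. Without single libraries the log2 fold change lay between 1.35 and 1.84, and on log2 FPKM with 1 added it was 0.555. The exons of Pik3ip1 overlap those of Gm12592.

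Sesn3 (ENSMUSG00000032009, chromosome 9, 14275067 to 14333101, + strand) encodes a sestrin, a stress protein that restrains mTORC1. It had 5, 3, 5 and 0 counts in the control libraries and 17, 18, 21 and 29 in the tranilast libraries. All control libraries held few counts or none, and no tranilast library was as low. The means were 0.225 ± 0.163 and 1.52 ± 0.321 normalised CPM (SD, n = 4 each). The log2 fold change of 2.71 (SE 0.478), at percentile 99.9 of the tested genes, was the largest of the members, and on log2 FPKM with 0.1 or 1 added it was 1.30 and 0.286.

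Irs2 (ENSMUSG00000038894, chromosome 8, 10984681 to 11008458, − strand) encodes the adaptor that carries the insulin signal from the receptor to PI3K. It had 3, 1, 0 and 1 counts in the control libraries and 0, 0, 2 and 0 in the tranilast libraries. All of these were at or under the floor, so this depth could not show a difference and no fold is given. Its exons overlap those of 9530052E02Rik on the opposite strand.

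Ccng2, the cell cycle gene of the set, had the most negative log2 fold change of the members. Ccng2 (ENSMUSG00000029385, chromosome 5, 93267257 to 93276231, + strand) encodes cyclin G2, an unusual cyclin that holds cells out of division. It had 36.0, 37.9, 34.2 and 38.3 normalised CPM in the control libraries and 22.9, 22, 25.4 and 26.0 in the tranilast libraries. The groups were well apart and the spread within each was small. The means were 36.6 ± 1.88 and 24.1 ± 1.92 normalised CPM (SD, n = 4 each), a log2 fold change of -0.60 (SE 0.0695) or -34.2%, at percentile 4.8 of the tested genes.

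Il7r, Klf2 and Bcl6 are best known from lymphocytes and their development. Il7r (ENSMUSG00000003882, chromosome 15, 9505788 to 9530176, − strand) encodes the alpha chain of the interleukin-7 receptor. It had 12, 7, 8 and 9 counts in the control libraries and 33, 18, 28 and 27 in the tranilast libraries, with no overlap. The means were 0.626 ± 0.163 and 1.91 ± 0.478 normalised CPM (SD, n = 4 each), a log2 fold change of 1.6 (SE 0.327). On log2 FPKM with 1 added it was 0.414.

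Klf2 (ENSMUSG00000055148, chromosome 8, 72319033 to 72321656, + strand) encodes a zinc finger factor of quiescence and cell traffic. It had 12.7, 13.4, 16.5 and 12.5 normalised CPM in the control libraries and 12.4, 9.92, 9.42 and 10.8 in the tranilast libraries. The groups were only just apart on this scale, and they overlapped on CPM of the library size (12 to 15.8 against 9.79 to 12.8) and on FPKM (6.51 to 8.56 against 5.30 to 6.93). The means were 13.8 ± 1.86 and 10.6 ± 1.29 normalised CPM (SD, n = 4 each), a log2 fold change of -0.37 (SE 0.117). Leaving out single libraries gave values from -0.45 to -0.28.

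Bcl6 (ENSMUSG00000022508, chromosome 16, 23965052 to 23988852, − strand) encodes a transcriptional repressor of germinal centre B cells that also acts in macrophages. It had 52.4, 53.6, 55.1 and 51.6 normalised CPM in the control libraries and 45.7, 46.3, 46.9 and 39.9 in the tranilast libraries. Tranilast replicate 4 was the lowest, and the groups did not overlap. The means were 53.2 ± 1.55 and 44.7 ± 3.21 normalised CPM (SD, n = 4 each), a log2 fold change of -0.25 (SE 0.0555), close to the median absolute difference of all tested genes. With library size alone it was -0.14.

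Several defining markers of lymphocytes were at 0 in these libraries, while Ighm and Lck were counted in each. Of the 9 T cell markers 2 passed 3 counts in a library, Cd3e, Cd3g, Cd8a, Cd8b1 and Trac were at 0, and together they took 0.000228% to 0.000306% of the control counts and 9.13e-05% to 0.000221% of the tranilast counts. Of the 7 B cell markers Ms4a1 and Cd22 were among those at 0, and the list took 0.00553% to 0.00619% and 0.00643% to 0.00806%, nearly all from Ighm, with 820 to 958 counts in the control and 849 to 1109 in the tranilast libraries. The T cell list thus lay below the control range in the tranilast libraries, through Lck at 34 to 44 and 9 to 25 counts, and the B cell list above it. Their part in the values of Klf2 and Bcl6 was not tested. Of the 6 natural killer and innate lymphoid markers Ncr1 and Gzma were at 0, and the list took 0.000107% to 0.000173% and 0.000159% to 0.000207%. Among them Rora had 7 to 8 counts in the control and 12 to 18 in the tranilast libraries, and Gata3 had 8 to 19 and 2 to 12. The part of these markers in the values of Il7r was not tested.

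**Figure D2:**
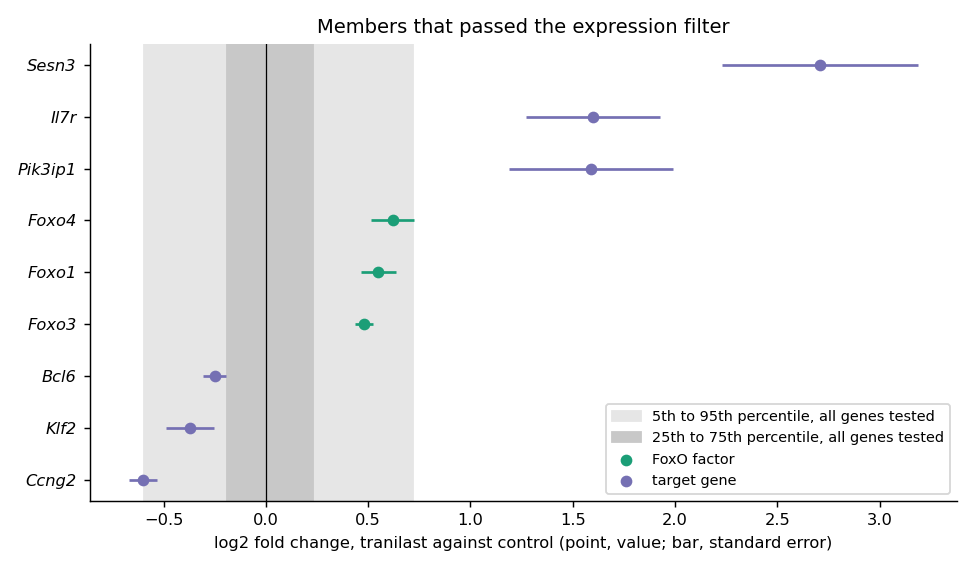
The log2 fold change (tranilast minus control, TMM scale) of the 9 tested genes with bars of 1 SE, over grey bands from the 5th to the 95th and from the 25th to the 75th percentile of all 10770 tested genes. Sesn3, Il7r and Pik3ip1 lie at 1.59 to 2.71, the 3 factors at 0.48 to 0.62 and Bcl6, Klf2 and Ccng2 at -0.60 to -0.25, against a range from the 5th to the 95th percentile of -0.59 to 0.72.

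Levels were compared between genes only on deposited FPKM, which is scaled for transcript length. Within a gene FPKM did not follow counts alone. Foxo4 had 162 and 148 counts but 3.57 and 4.43 FPKM in control replicates 2 and 4. Sesn3 had 5 counts but 0.038 and 0.113 FPKM in control replicates 1 and 3. The part of this in the order, SDs and overlaps below was not tested. In the control libraries Bcl6 was highest at 14.5 ± 0.384 FPKM (SD, n = 4 here and below). Ccng2 at 13.2 ± 0.724 and Foxo3 at 12.4 ± 0.551 followed, with ranges that overlapped each other. Klf2 (7.16 ± 0.95), Foxo4 (3.64 ± 0.545) and Foxo1 (1.56 ± 0.0972) came next, each clear of its neighbours. Pik3ip1 (0.264 ± 0.104) and Il7r (0.170 ± 0.0444) overlapped, as did Sesn3 (0.0670 ± 0.0576) and Irs2 (0.0137 ± 0.0138).

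In the tranilast libraries Foxo3 was first, at 18.9 ± 1.25 FPKM, above Bcl6 at 13.2 ± 0.924 and Ccng2 at 9.25 ± 0.726. Foxo4 (6.09 ± 0.512) and Klf2 (5.99 ± 0.714) overlapped, and Foxo1 was at 2.48 ± 0.206. Pik3ip1 (0.877 ± 0.348) overlapped Il7r (0.562 ± 0.138), which overlapped Sesn3 (0.303 ± 0.111). Foxo3 thus stood below Bcl6 in one group and above it in the other, without overlap in either. The summed FPKM of the 3 factors and Foxo6 was 16.8 to 19.1 in the control and 26.0 to 29.1 in the tranilast libraries. Foxo6 gave at most 0.118% of it. These sums are not on the TMM scale, on which the differences were smaller. The log2 fold changes of Foxo1, Foxo3 and Foxo4 were 0.64, 0.60 and 0.73 on log2 FPKM with 0.1 added. On the TMM scale they were 0.55, 0.48 and 0.62. Foxo3 made up 67.9% to 72.9% of the sum in the control libraries and 66.2% to 70.3% in the tranilast libraries. Foxo4 gave 18.5% to 23.3% and 20.2% to 24.8%, and Foxo1 8.52% to 9.35% and 8.0% to 9.92%, so that each factor's share overlapped between the groups.

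**Figure D3:**
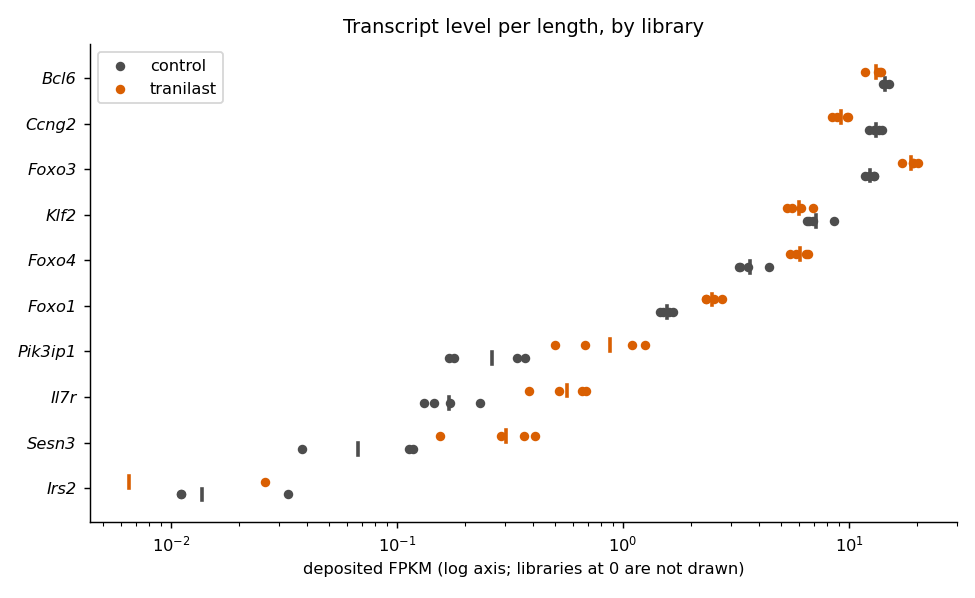
Deposited FPKM (log axis) of the 10 genes in each library, grey for control and orange for tranilast, with a short vertical line at each group's mean. Points at 0 cannot be drawn on this axis, so Irs2 in the tranilast group shows a mean of 0.0065 with most of its libraries undrawn. Foxo3 lies above Foxo4 and Foxo4 above Foxo1 in both groups.

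The genes whose profile over the 8 libraries was most like that of each factor were named by the root mean square difference of log2 CPM, each gene centred on its own mean. For Foxo3 these were Brca1 (0.0192), Gclc (0.0333) and AB124611 (0.0335), whose log2 fold changes were 0.50, 0.45 and 0.47. For Foxo1 they were Tonsl (0.0480), Donson (0.0595) and Galns (0.0617). For Foxo4 they were Ttc8 (0.0540), Mthfd2 (0.0703) and Ring1 (0.0760). All of these genes were also higher in the tranilast group, a difference that the measure includes, and nothing is read from it about shared function.

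The genes that control FoxO proteins were described next, from a list of 53 that holds the insulin and PI3K-AKT pathway and the enzymes and partners of FoxO. The list was chosen with earlier results of these data known, so its shares are a description. Of the 50 tested 15 were called higher and 20 lower, which is 70.0% against 57.0% of all tested genes, and their median log2 fold change was -0.05 against 0.01. With library size alone the median was 0.06 and the balance turned, with 21 called higher and 17 lower. The counts were 19 and 19 with upper-quartile factors and 17 and 17 on log2 FPKM with 1 added. Differences were small, from -0.51 to 0.42. Sirt1, a deacetylase of FoxO proteins, was higher, at 31.8 ± 1.17 and 42.6 ± 1.41 normalised CPM (log2 fold change 0.42, SE 0.0547, adjusted p = 3.3e-06). Insr, the insulin receptor, rose from 35.3 ± 3.43 to 46.1 ± 3.20 (log2 fold change 0.38, adjusted p = 1.3e-04). Phlpp1, a phosphatase of AKT, Ogt, which adds GlcNAc to FoxO proteins, and Ctnnb1, the FoxO partner beta-catenin, rose by 0.32, 0.32 and 0.30 on the log2 scale (adjusted p = 8.3e-04, 6.7e-07 and 8.2e-08).

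On the lower side were a lipid phosphatase of the pathway, Inpp5d, and a catalytic subunit of PI3K, Pik3cd. Inpp5d went from 237 ± 3.46 to 167 ± 6.0 normalised CPM (log2 fold change -0.51, adjusted p = 3.7e-10) and Pik3cd from 179 ± 5.65 to 130 ± 6.99 (-0.46, adjusted p = 1.8e-08). Xpo1, the nuclear export receptor, fell from 470 ± 16.8 to 345 ± 3.88 (-0.45, adjusted p = 3.3e-10). Ywhah and Ywhaz encode adaptors that bind phosphorylated FoxO; Ywhah went from 498 ± 4.55 to 352 ± 8.84 (-0.50, adjusted p = 1.9e-11) and Ywhaz from 616 ± 8.01 to 461 ± 9.56 (-0.42, adjusted p = 1.1e-10). The 6 Ywha genes of the list, a group picked after their values were seen, were all called lower, at -0.50 to -0.18, where 28.8% of all tested genes were, and 5 of the 6 were with library size alone.

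The FoxO pathway of the deposited KEGG annotation, without the 8 members it holds, has 126 genes. It leaves out Sesn3 and Pik3ip1. Of the 91 tested 33 were called higher and 27 lower, 65.9% against 57.0% of all tested genes, and the median log2 fold change was 0.02. Its 5 lowest genes by the naming rule were of the cell cycle or, for Bnip3, of mitophagy. The mitotic kinase Plk1 fell from 147 ± 9.04 to 24.6 ± 0.634 normalised CPM (log2 fold change -2.58, SE 0.0519, adjusted p = 7.8e-17). The mitotic cyclins Ccnb2 and Ccnb1 were lower, with log2 fold changes of -2.23 and -1.95 (adjusted p = 3.7e-15 and 3e-16), and the CDK inhibitor Cdkn2d fell by 1.54 (adjusted p = 1.2e-11). Bnip3 went from 384 ± 18.8 to 195 ± 9.14 (-0.98, adjusted p = 3.6e-13). Among the highest, the polo-like kinase Plk2 rose from 8.57 ± 1.83 to 20.8 ± 2.50 (1.28, adjusted p = 1.8e-07), S1pr1, a receptor for lymphocyte egress, from 1.94 ± 0.231 to 4.61 ± 0.913 (1.25, adjusted p = 5.0e-05), and Mdm2, the ubiquitin ligase of p53, from 102 ± 1.66 to 192 ± 5.46 (0.92, adjusted p = 1.6e-13). Pck2, the mitochondrial PEP carboxykinase, and Homer3, a scaffold protein, rose by 1.11 and 0.83 (adjusted p = 2.1e-09 and 6.7e-08).

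A further list of 58 genes holds textbook targets of FoxO, of which 24 are also in the KEGG pathway. This list and its classes were also chosen with earlier results of these data known. Their shares and medians are therefore a description and not independent evidence about FoxO targets. Of the 43 tested 22 were called higher and 12 lower, which is 51.2% and 27.9% against 28.2% and 28.8% of all tested genes, and their median log2 fold change was 0.21 against 0.01. The counts by class of function follow, each to be set beside those shares of all tested genes, and differences between the classes were not tested. Of the 8 tested genes of autophagy and protein breakdown 7 were higher and 1 lower, with a median of 0.47. Ulk1, the kinase that starts autophagy, rose from 24.1 ± 2.61 to 53.0 ± 4.92 normalised CPM (1.14, adjusted p = 7.8e-10). The exception was Bnip3, given above.

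Of the 5 tested apoptosis targets 3 were called higher and none lower, against 28.2% and 28.8% of all tested genes. Bbc3 (PUMA), which is also a p53 target, rose from 12.5 ± 1.11 to 41.0 ± 3.34 normalised CPM (log2 fold change 1.72, SE 0.0815, adjusted p = 4.4e-12). Of the 7 tested stress defence targets 3 were higher and 3 lower. Sesn2 is a relative of Sesn3, and Sesn2 itself is also a p53 and amino acid stress target. It had 19.5, 14.6, 15.1 and 13.7 normalised CPM in the control and 58.4, 61.4, 56.9 and 59.8 in the tranilast libraries (log2 fold change 1.91, SE 0.0808, adjusted p = 8.9e-13). Its groups were far apart.

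Of the 4 tested metabolic targets 3 were higher and none lower, beside the same 28.2% and 28.8%. Lpin1, a phosphatidate phosphatase, rose from 17.9 ± 0.934 to 41.0 ± 4.72 normalised CPM (1.20, adjusted p = 7.3e-10). The metabolic targets that define hepatic FoxO1 action were not measurable here: G6pc and Igfbp1 had no count in any library, Pck1 had 0 to 6 and Ppargc1a 0 to 1. Of the 17 cell cycle targets 4 were higher and 8 lower. The class holds genes of arrest beside genes that FoxO represses, so its counts are not read as a direction of FoxO activity. Ccnb1 (-1.95) and the CDK inhibitor Cdkn2d (-1.54), given above, were among the lower ones. Ccnd1, cyclin D1, which FoxO is known to repress, went from 793 ± 29.9 to 535 ± 23.9 (-0.57, adjusted p = 6.8e-11), and Gadd45g, a growth arrest gene, from 5.19 ± 0.789 to 3.08 ± 0.503 (-0.75, adjusted p = 0.00171). Of the 8 lymphocyte and myeloid targets 2 could be tested and both were higher. Rag2 and, of the apoptosis targets, Fasl had no count in any library, and Ccr7 and Rag1 had at most 1. Cxcr4, also removed by the filter, had 0 to 2 counts in the control and 6 to 12 in the tranilast libraries. Tcf7 had 0 to 3 and 0 to 6.

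**Figure D4:**
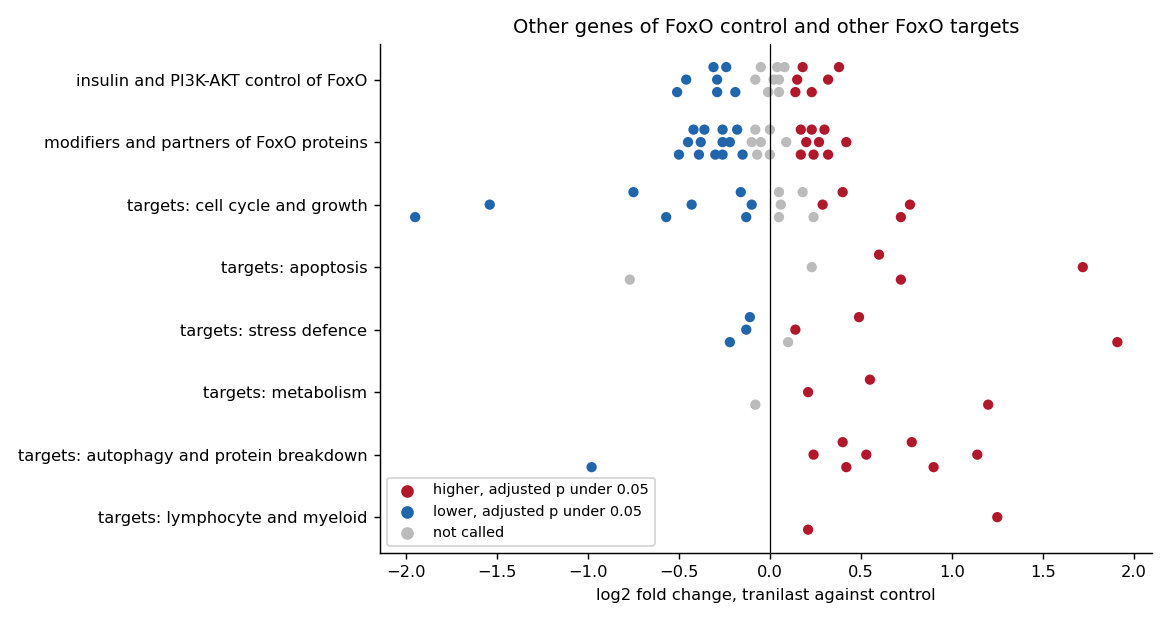
Log2 fold change (tranilast minus control) of each tested gene in the lists of FoxO control genes and other FoxO targets, 1 point a gene, split by function, in red where called higher, in blue where called lower (adjusted p-value under 0.05) and in grey where not called. The autophagy targets lie mostly above 0, from -0.98 to 1.14, while the genes that control FoxO proteins stay between -0.51 and 0.42.

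The FoxO core was found in the promoter windows of 11 of the 47 further targets with a window, or 23.4%, against 4.05% of all genes. Bbc3 and Bcl2l11 were among these, with the first base of the match 167 and 227 bases before the start. Of the 11, Bbc3, Bcl2l11 and Adipor1 were called higher with tranilast, and Btg1, Mxi1 and Txnip lower. Adipor2 and Sesn1 were not called, and the filter removed Selenop, Tcf7 and Trim63. The insulin response element core was in 2 of the 47, G6pc and Igfbp1, or 4.26%, against 7.20% of all genes. The lists hold genes known as FoxO targets in part from such sites, so the share is a description.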

How the data were processed

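RNA-seq of 8 libraries was read from a table of estimated counts and FPKM for each gene. The estimated counts deposited by the authors are not normalised and need not be whole. The deposited FPKM were corrected by the authors for the length of the transcript and the depth of the library. The aligner, counting tool and genome build are not given in the sources used here, and the labels name a NovaSeq instrument whereas the methods name HiSeq X-ten. Among genes above 0 in any library, between 89.5% and 91.2% of a library's counts were whole, zeros included. All counts were rounded. Genes were filtered with filterByExpr by group (at least 0.683 CPM in 4 libraries), libraries scaled by TMM, and groups compared with the quasi-likelihood test of edgeR 4.0.16 with Benjamini-Hochberg adjustment over 10770 genes, without covariates (R 4.3.3). SE is that of the fit. The methods name limma, and limma-voom (limma 3.58.1) was an alternative, as were RLE, upper-quartile and library-size scaling, DESeq2 1.42.0, limma on log2 FPKM (1 or 0.1 added), a minimum of 10 counts in each library, a fit without the filter, the replicate number as a block and each library left out in turn. The code was tested on simulated data.

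The members and gene lists were chosen with earlier results of these data known. Beside the members and Foxo6, the text names the 5 highest and 5 lowest called genes without overlap in each of 3 lists, list genes that the filter removed, and 3 genes with the most similar profile to each factor, on log2 CPM with 0.1 added. Coordinates are 1-based, from GENCODE M21 on GRCm38, where 21973 of the table's genes were found and 90 were not. Promoter windows are RefSeq's. No window for Foxo4 was used here. Python 3.11.15, pandas 2.3.3, numpy 2.4.6 and matplotlib 3.10.9 were used. The floor for a gene at 0 was set at 3 counts, or 0.196 to 0.240 normalised CPM in these libraries, and covers counting error only. Reads shared with paralogs or overlapping genes were not separable.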

Additional observations from a re-analysis of the deposited data

Results flagged for a closer look

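In 2 of 70 groups of 4 libraries, those of the members and the other named genes, a library stood apart from the other 3 by more than Dixon's critical value, where about 1 group in 20, or 3.5 groups, would do so by chance. Pik3ip1 was at 2.16 normalised CPM in tranilast replicate 3 and at 1.17 to 1.23 in the others, a gap of 0.943 of the range. Bcl6 was at 39.9 in tranilast replicate 4 and at 45.7 to 46.9 in the others, a gap of 0.834 of the range.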

How the results depend on the processing

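Every tested member kept its direction under the 10 alternatives and the 8 fits that each left out a library, and the genes named for the highest and lowest changes of the KEGG pathway, the control genes and the further targets kept their direction and call. The number of all tested genes called higher was 4613 with library size alone, and the number called lower 1893 with library size alone and 1660 and 1663 on log2 FPKM with 1 and 0.1 added. The further FoxO targets called lower numbered 7 with library size alone. The cause of these moves was not tested. Without single libraries, genes called higher numbered 2793 to 2912 and lower 2866 to 3019, KEGG pathway genes 30 to 33 and 26 to 28, FoxO control genes 12 to 15 and 19 to 21, and further targets 21 to 25 and 11 to 13. The log2 fold changes of the members ranged from 0.50 to 0.59 (Foxo1), 0.46 to 0.51 (Foxo3), 0.55 to 0.67 (Foxo4), 2.31 to 3.0 (Sesn3), 1.48 to 1.78 (Il7r) and -0.64 to -0.56 (Ccng2). Some moved by more than an SD with another scale, as Foxo1 to 0.67 and Foxo3 to 0.60 with library size alone. Il7r moved to 0.41 and Pik3ip1 to 0.56 on log2 FPKM with 1 added, which understates low genes. Bcl6, which is not a low gene, moved to -0.13 on that scale. It was at -0.14 with 0.1 added and with library size alone. Sesn3, Il7r and Pik3ip1 could not be fitted with at least 10 counts in every library. Replicate numbers did not pair the libraries: the correlations of same-numbered libraries were -0.06, -0.04, 0.0076 and 0.11, and 0 of 4 control libraries matched best with their own number. With the replicate number as a block, 2957 genes were called higher and 3052 lower, 32 and 27 in the KEGG pathway, 15 and 20 of the control genes and 21 and 12 of the further targets. Depth limits Irs2, Foxo6 and the low targets, where single libraries held a few counts.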
